A study of Saccharomyces cerevisiae with 12 samples.

Results

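The 26S proteasome degrades proteins that carry ubiquitin chains. Its 20S core is a barrel of alpha and beta rings with the proteolytic sites inside, and the 19S regulatory particle on its ends has a base, which holds the ATPase ring that unfolds substrates, and a lid, which holds the enzyme that removes ubiquitin. In budding yeast the genes of these subunits are activated by Rpn4, a short-lived transcription factor that the proteasome itself destroys, so that the regulator and its targets form a feedback loop.

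The 36 genes described here are the subunits of the core (14 genes, 7 in each ring), the base (10) and the lid (9), with the core assembly factor UMP1, the core-to-19S tether ECM29 and the regulator RPN4. They were chosen by name, and each was read from the brightest probe set of the gene over all arrays. All 36 were measured, each with 1 probe set, among 5449 genes and 5716 probe sets. Their values lay between 10.92 and 14.73 on the log2 scale, where the highest value of any probe set was 16.20, so none was near the dim end of the arrays. The levels of different probe sets are not comparable, and only differences between arrays are read.

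RNA came from 2 prototrophic strains of Saccharomyces cerevisiae, each grown aerobically as a batch and as a glucose-limited chemostat, with 3 biological replicates, for 12 Affymetrix arrays in 4 groups. CEN.PK 113-7D is labelled Mat a. YSBN2 is labelled as an FY strain with ho::Ble/ho::HphMX4, with these markers in both of its cultures. That notation gives 2 HO alleles, as a diploid has, beside the single mating type given for CEN.PK 113-7D. The labels do not state the ploidy, so strain background and any difference in ploidy cannot be told apart in the strain comparisons. All cultures ran in 4 L reactors at 30 °C and pH 5.0, the batches starting from 30 g/L glucose. The feed of the chemostats held 7.5 g/L glucose with ethanol at 0.3 g/L, and the dilution rate was 0.1 per hour. In such bulk RNA, a lower level in every cell and a lower level in some of the cells cannot be told apart.

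The HO probe set separated the strains as labelled, with values of 11.46 to 12.62 on the 6 CEN.PK 113-7D arrays and 2.11 to 2.39 on the 6 YSBN2 arrays. Array medians ran from 11.02 to 11.37 as deposited. Setting them equal moved the middle of all 5716 differences by -0.29, -0.13, -0.10, 0.05 and 0.15 in the 5 comparisons in the order given below, so counts are also given with a common array median. The third YSBN2 batch array stood apart: 196 probe sets differed by 2 log2 units or more from the average of its 2 companion arrays, against 2 to 77 on the other 11 arrays. The glucose transporter HXT2 read 14.04 there and 4.26 and 4.21 on the other YSBN2 batch arrays. It read 11.84 to 12.13 on the CEN.PK 113-7D batch arrays and 13.16 to 14.85 on the chemostat arrays. On HXT2 the first 2 YSBN2 batch arrays are thus the ones unlike all others. The members on the third array lay a median of 0.26 above the average of its companions. The counts and main member values that use YSBN2 batch are also given without the third array. Why that array differed from its companions was not tested.

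RPN4 rose in the chemostat in both strains, by more than any other member rose. The CEN.PK 113-7D batch values were 12.49, 12.49 and 12.28, and its chemostat values 13.59, 13.85 and 13.87. The YSBN2 batch values were 12.42, 12.61 and 12.32, and its chemostat values 13.36, 13.52 and 13.46. Every chemostat array was above every batch array. The log2 difference was 1.35 ± 0.11 (SE, n = 3 and 3) in CEN.PK 113-7D, a 2.55-fold rise with a limma adjusted p of 5.44e-06. In YSBN2 it was 1.00 ± 0.11, a 2.00-fold rise with a limma adjusted p of 5.03e-05, and 0.94 ± 0.11 without the third batch array. RPN4 kept its call in all 21 alternative settings of each comparison. The batch arrays of the strains overlapped, with a difference of 0.03 ± 0.11 (95% interval -0.22 to 0.27), and 0.09 ± 0.11 without the third YSBN2 array. In the chemostat the 3 YSBN2 arrays lay below the 3 CEN.PK 113-7D arrays, with a difference of -0.32 ± 0.11 that missed the threshold at a limma adjusted p of 0.0515. It was called with the replicate block and when the third YSBN2 batch array was left out of the fit (adjusted p = 0.0348).

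**Figure D1:**
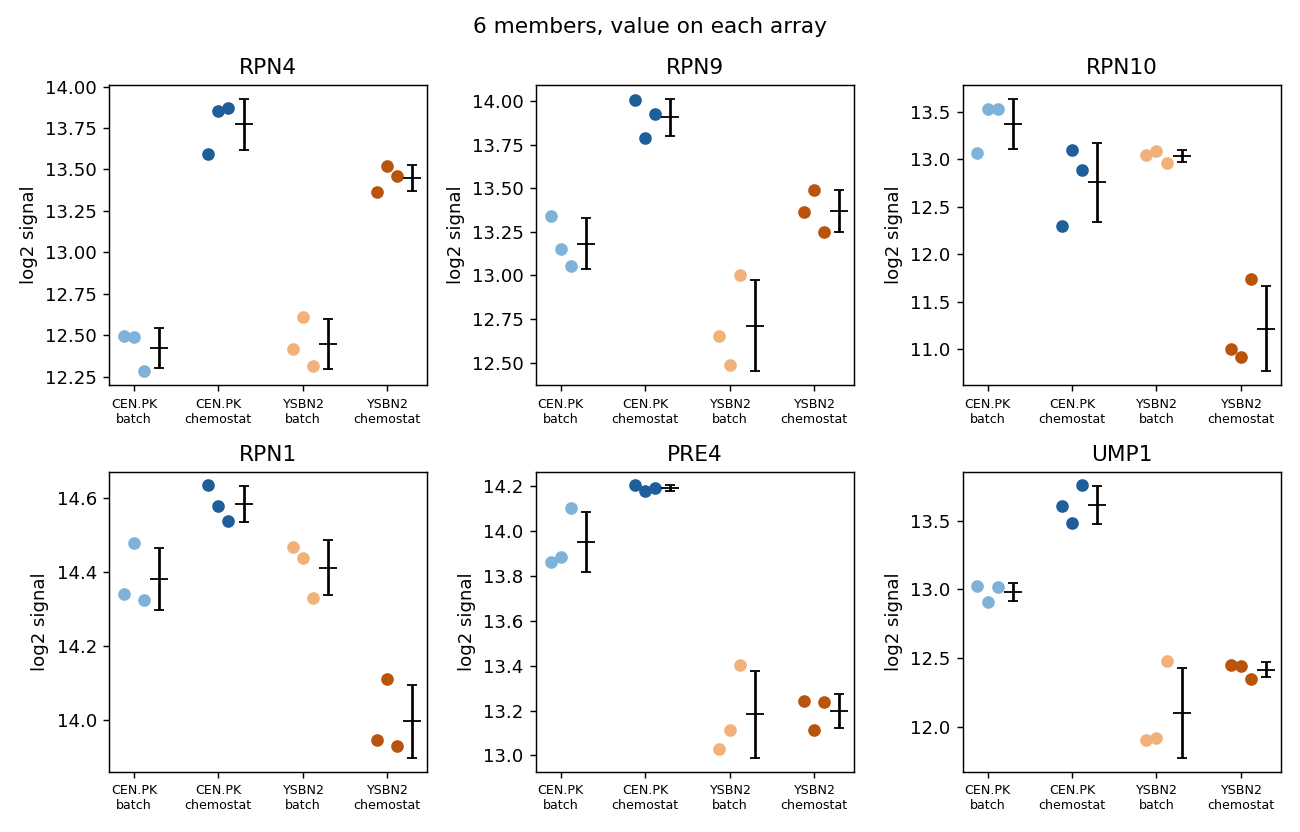
Log2 signal (y axis, a separate range in each panel) of 6 members on the 3 arrays of each strain-by-culture group, with the group mean and SD as a black bar beside the points. RPN4 separates the cultures, PRE4 and UMP1 separate the strains, and RPN10 and RPN1 are lowest on the 3 YSBN2 chemostat arrays.

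As deposited, the share of members called higher with culture was near that of all probe sets in both strains. In CEN.PK 113-7D, 13 of the 36 members were called higher in the chemostat and 0 lower, at a limma adjusted p under 0.05, against 33.9% of all probe sets called higher and 22.2% called lower. The median difference of the members was 0.22, beside 0.09 over all probe sets. Under a common array median 3 were higher (RPN5, RPN9 and RPN4), 4 were lower (PUP1, PRE2, RPN10 and RPN6), against 25.4% and 37.5% of all probe sets, and the median was -0.07. At an unadjusted p under 0.05, 19 were higher and 1, RPN10, was lower, and the shares of all probe sets at that threshold were not computed. With the replicate number as a block 17 were higher and 2, PUP1 and RPN10, lower, against 34.6% and 23.3% of all probe sets. The count of higher members was 21 without the third YSBN2 batch array, against 37.4% of all probe sets, and 20 when only the 6 arrays compared were fitted. The count of lower members was 2 without CEN.PK 113-7D batch array 1, and 1 without CEN.PK 113-7D chemostat array 2, YSBN2 batch array 3 or YSBN2 chemostat array 3.

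In YSBN2 10 members were called higher and 11 lower in the chemostat, against 30.6% and 21.9% of all probe sets. Calls in both directions were thus common over all probe sets too. The median difference of the members was -0.02, beside 0.07 over all probe sets. Equal array medians gave 3 higher (RPN8, RPN9 and RPN4) and 13 lower, against 25.8% and 27.4% of all probe sets. Without the third batch array 11 were higher and 12 lower, against 31.9% and 22.6%. The count of higher members was 5 or 4 without YSBN2 batch array 1 or 2, 4 without YSBN2 chemostat array 2, and 5 with only the 6 arrays compared. Across the 36 members, which are not independent, the culture differences of the strains had a Pearson r of 0.87, and of 0.79 without RPN4 and RPN10. These differences share no array, and 20 members had the same sign in both.

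**Figure D2:**
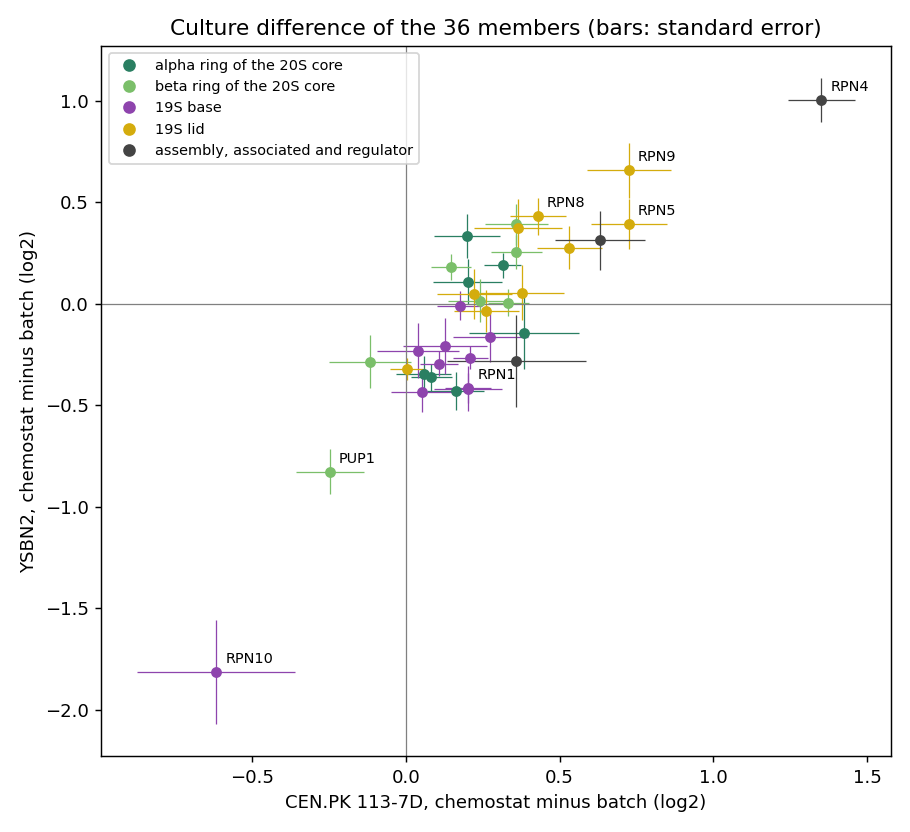
Chemostat minus batch difference of the 36 members (log2, bars are standard errors) in CEN.PK 113-7D on the x axis and in YSBN2 on the y axis, coloured by subcomplex. RPN4 is at the upper right at 1.35 and 1.00, RPN10 at the lower left at -0.61 and -1.81, lid subunits lie mostly in the upper right, and base subunits lie below 0 on the y axis.

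Of the 9 lid genes 5 were called higher in the CEN.PK 113-7D chemostat, and 4 higher and 1 lower in YSBN2. Over all probe sets the shares were 33.9%, 30.6% and 21.9%. Without the third YSBN2 batch array the lid counts were 8, 3 and 1, beside shares of 37.4%, 31.9% and 22.6%. RPN3, RPN5, RPN8 and RPN9 were called higher in both strains. RPN5 and RPN9 are scaffold subunits with the PCI fold, and RPN8 pairs with the deubiquitinating enzyme RPN11.

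RPN9 read 13.34, 13.15 and 13.05 in CEN.PK 113-7D batch and 14.01, 13.79 and 13.93 in its chemostat. In YSBN2 the batch arrays gave 12.65, 12.49 and 13.00 and the chemostat arrays 13.36, 13.49 and 13.25. Within each strain the chemostat arrays were all above the batch arrays. The difference was 0.73 ± 0.14 (SE, limma adjusted p = 0.00149) in CEN.PK 113-7D and 0.66 ± 0.14 (0.00292) in YSBN2, or 0.80 ± 0.11 without the third YSBN2 batch array. RPN9 was also called higher in both strains with a common array median.

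RPN5 gave 14.04, 13.80 and 13.74 in CEN.PK 113-7D batch and 14.65, 14.51 and 14.60 in the chemostat, a difference of 0.73 ± 0.12 (limma adjusted p = 0.000795). Its YSBN2 batch values were 13.79, 13.60 and 14.01 and its YSBN2 chemostat values 14.19, 14.34 and 14.05, a difference of 0.39 ± 0.12 that was not called with a common array median. The groups did not overlap in either strain, though the third YSBN2 batch array reached 14.01 against a lowest chemostat value of 14.05. RPN8 gave 0.43 ± 0.09 in each strain, and with a common array median it was called in YSBN2 and not in CEN.PK 113-7D. Without the third batch array its YSBN2 difference was 0.51 ± 0.08. For RPN3 the difference was 0.53 ± 0.11 in CEN.PK 113-7D and 0.28 ± 0.11 in YSBN2, where it was not called without the third batch array (adjusted p = 0.0776), and a common array median ended its call in both strains.

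The other lid genes were called less uniformly. RPN6, the subunit that clamps the lid to the core, read 13.68, 13.66 and 13.63 in CEN.PK 113-7D batch and 13.61, 13.67 and 13.72 in its chemostat, so the groups overlapped. YSBN2 arrays fell from 13.39, 13.36 and 13.32 to 12.97, 13.05 and 13.07, a difference of -0.32 ± 0.06 (limma adjusted p = 0.00103) that held in every alternative setting run. RPN11 was called higher in CEN.PK 113-7D, by 0.38 ± 0.14 as deposited and not with quantile normalization (0.24), and gave 0.05 ± 0.14 in YSBN2. RPN7 and RPN12 were called in neither strain with all 12 arrays. In CEN.PK 113-7D both were called higher without the third YSBN2 batch array, and RPN12 (0.26) with the replicate block. SEM1, the smallest lid subunit, was called in none of the 5 comparisons with all 12 arrays, with culture differences of 0.36 ± 0.14 and 0.37 ± 0.14 (adjusted p = 0.0526 and 0.051). Without the third YSBN2 batch array it was called higher in CEN.PK 113-7D (adjusted p = 0.0456).

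In the base the YSBN2 calls ran the other way. In the chemostat 6 of its 10 genes were called lower and 0 higher, against 21.9% and 30.6% of all probe sets. The 6 were the ATPases RPT1, RPT2 and RPT6, the scaffolds RPN1 and RPN2, and the ubiquitin receptor RPN10. All 10 had negative differences, and with a common array median 7 were called lower, against 27.4% of all probe sets. Without the third batch array the count stayed at 6, against 22.6%. As deposited, 2 base genes were called higher in CEN.PK 113-7D, against 33.9% of all probe sets. They were RPT6 and RPN1, at 0.21 ± 0.06 and 0.20 ± 0.07. Those 2 turned to -0.075 and -0.082, not called, with a common array median, so their direction in CEN.PK 113-7D rests on the deposited scaling.

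RPN10 had the largest culture difference of any member in YSBN2. It read 13.04, 13.09 and 12.96 in YSBN2 batch and 11.00, 10.92 and 11.74 in the YSBN2 chemostat, with no overlap. The difference was -1.81 ± 0.26, a 3.51-fold fall (limma adjusted p = 0.000284), and -1.85 ± 0.30 without the third batch array. The CEN.PK 113-7D batch arrays gave 13.07, 13.52 and 13.53 and its chemostat arrays 12.29, 13.09 and 12.89. There the groups overlapped, and the difference of -0.61 ± 0.26 was not called (adjusted p = 0.0672), though it was with the replicate block and with a common array median. RPN10 also varied widely among replicates, with SDs of 0.42 and 0.45 in the chemostats. RPN13, the other dedicated ubiquitin receptor of the base, was not called in either strain, at 0.04 ± 0.13 and -0.23 ± 0.13.

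RPN1, the scaffold that docks ubiquitin shuttles, read 14.47, 14.44 and 14.33 in YSBN2 batch and 13.95, 14.11 and 13.93 in the chemostat. It read 14.34, 14.48 and 14.32 in CEN.PK 113-7D batch and 14.63, 14.58 and 14.54 in its chemostat. So all chemostat arrays lay below the batch arrays in YSBN2 and above them in CEN.PK 113-7D. The YSBN2 difference of -0.42 ± 0.07 (limma adjusted p = 0.00118), -0.46 ± 0.08 without the third batch array, held in every alternative setting run.

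As deposited, 12 of the 14 core differences were positive and 2 negative in CEN.PK 113-7D, and the YSBN2 calls went both ways. In CEN.PK 113-7D 4 of the 14 core genes were called higher and 0 lower, against 33.9% and 22.2% of all probe sets. The 4 were PRE6 of the alpha ring, and PRE3, PRE1 and PRE7 of the beta ring. With a common array median 0 were higher and 2 lower, against 25.4% and 37.5%. Without the third YSBN2 batch array 7 were higher and 1 lower, against 37.4% and 25.9%. In YSBN2 5 were called higher and 4 lower, against 30.6% and 21.9% of all probe sets. The YSBN2 counts were 6 and 4 without the third batch array, against 31.9% and 22.6%. They were 0 and 5 with a common array median, against 25.8% and 27.4%. PRE6, PRE1 and PRE7 were called higher in both strains as deposited. The YSBN2 falls were in the alpha subunits SCL1, PUP2 and PRE5 and in PUP1, which carries the trypsin-like site. PUP1 read 13.00, 13.13 and 13.39 in YSBN2 batch and 12.35, 12.28 and 12.40 in the chemostat, a 1.77-fold fall (-0.83 ± 0.11, limma adjusted p = 0.000193). The groups were well apart, and without the third batch array the difference was -0.72 ± 0.10. In CEN.PK 113-7D all PUP1 chemostat arrays also lay below all batch arrays, with a difference of -0.25 that was not called as deposited. It was called lower there with a common array median, quantile normalization or the replicate block, and without the third YSBN2 batch array. PRE2, with the chymotrypsin-like site, was not called in either strain as deposited (-0.12 ± 0.13 and -0.29 ± 0.13) and was called lower in both with a common array median (-0.40 and -0.42), and PRE3, with the caspase-like site, was called higher as deposited in CEN.PK 113-7D (0.33 ± 0.07) and gave 0.005 ± 0.066 in YSBN2.

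Among the remaining members, UMP1, the chaperone that is enclosed and destroyed as the core matures, was called higher in the CEN.PK 113-7D chemostat, by 0.63 ± 0.15, and was not called there with a common array median (0.35). In YSBN2 its difference was 0.31 ± 0.15, not called with all arrays, and 0.50 ± 0.09 (limma adjusted p = 0.00111) without the third batch array. ECM29 was not called in either strain with all 12 arrays. Without the third YSBN2 batch array it was called higher in CEN.PK 113-7D and lower in YSBN2 (-0.56 ± 0.15, limma adjusted p = 0.0117), and its difference of effects was called too (-0.93 ± 0.20).

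Averaging the members of a subcomplex within an array, after centring each on its own mean over the 12 arrays, gave a contrast that no array-wide shift can alter. Above and below are relative to those means and do not compare signal levels, so only changes between groups are read. The base stood above the lid by 0.05, 0.26 and 0.25 on the CEN.PK 113-7D batch arrays and by 0.32, 0.36 and 0.19 on the YSBN2 batch arrays. It stood below the lid on all 6 chemostat arrays, with values of -0.23, -0.05 and -0.13 in CEN.PK 113-7D and -0.37, -0.38 and -0.27 in YSBN2. The 6 batch arrays and the 6 chemostat arrays did not overlap. Group means were 0.19 ± 0.12 (SD, n = 3) and -0.14 ± 0.09 in CEN.PK 113-7D batch and chemostat, and 0.29 ± 0.09 and -0.34 ± 0.06 in YSBN2. Without the third array the YSBN2 batch mean was 0.34. Quantile normalization gave 0.19, -0.14, 0.29 and -0.35. No test was made on these averages. RPN10, 1 of the 10 base genes, ranged over 2.61 log2 units across the 12 arrays, more than any other member. It therefore weighs on the base averages, which were not computed without it.

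The core lay close to the base in CEN.PK 113-7D batch, at a core minus base of -0.020 ± 0.004, and 0.08 ± 0.06 above it in the chemostat. In YSBN2 it lay 0.21 ± 0.12 below the base in batch and 0.15 ± 0.04 above it in the chemostat. These differences from the base also include RPN10, and how much of them rests on that gene was not computed. The alpha and beta rings differed by 0.035 or less in every group mean. RPN4, centred in the same way, was below the centred mean of the 33 subunits in both batches, at -0.72 ± 0.12 in CEN.PK 113-7D and -0.40 ± 0.24 in YSBN2, or -0.27 without the third array. It was above that centred mean in both chemostats, at 0.42 ± 0.13 and 0.70 ± 0.05.

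**Figure D3:**
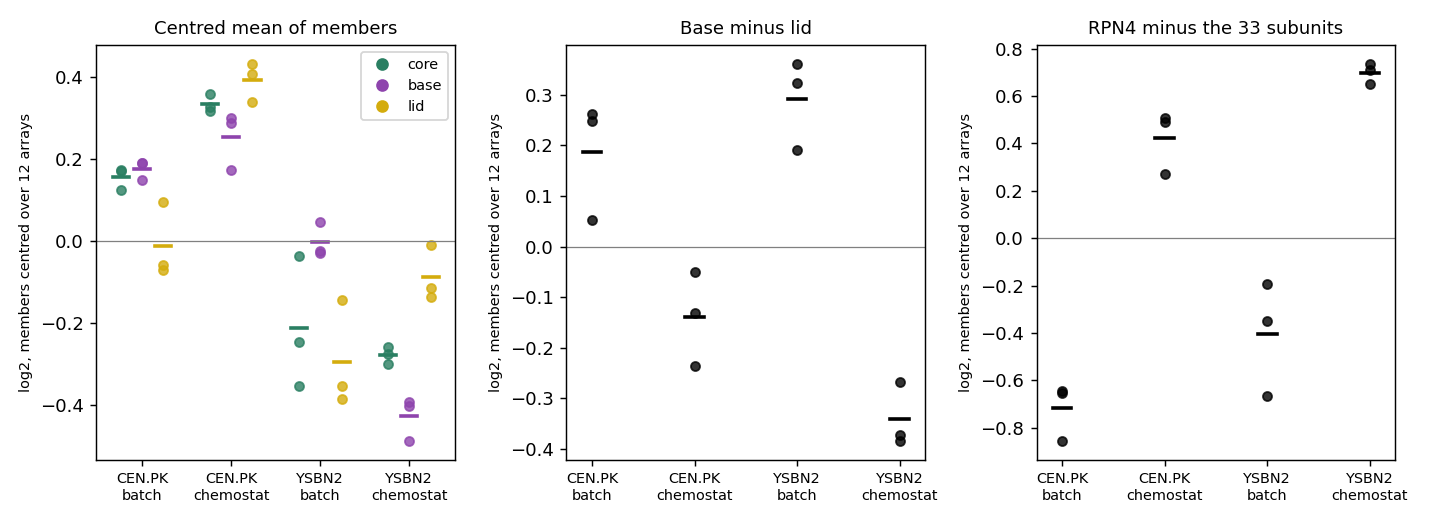
Per-array means of the core, base and lid members, each member centred on its own mean over 12 arrays (left), base minus lid (middle) and RPN4 minus the mean of the 33 subunits (right), in log2 units, with 1 point per array and a bar at the group mean. Base minus lid is above 0 on the 6 batch arrays and below 0 on the 6 chemostat arrays, and RPN4 minus subunits runs the other way.

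Single subunits differed in how they ran with RPN4 over the 12 arrays, which share 4 groups, so the correlations describe the group pattern. RPN5 (r = 0.86), RPN3 (0.85), RPN9 (0.80), SEM1 (0.77) and RPN8 (0.74) of the lid were the highest, and RPN10 (-0.54) and PUP1 (-0.47) the lowest. RPT6 had an r of 0.97 with the mean of the other subunits and 0.12 with RPN4. Of 4647 other genes, PHB2, a mitochondrial prohibitin, had the profile most like the mean of the subunits over the 12 arrays (r = 0.98), followed by ERG29, FES1, MRPL27 and ERG26. YGR201C, YBR085C-A, DAS1, ATG1 and HSP78 were most like RPN4, with r from 0.98 to 0.99.

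The strain difference was the broadest result. In the chemostat all 36 members were lower in YSBN2, and for all 36 the 3 YSBN2 arrays lay below the 3 CEN.PK 113-7D arrays. The share of all probe sets that separate in this way was not computed, so that count has no background beside it. Of the 36 members 32 were called lower and 0 higher, against 15.3% of all probe sets called lower and 12.9% called higher. At an unadjusted p under 0.05, 34 were lower and 0 higher, with no share of all probe sets computed at that threshold. The median difference was -0.58, beside -0.01 over all probe sets. Under equal array medians all 36 were still negative, 30 were called lower against 13.8% of all probe sets, and the median was -0.53. Leaving out any 1 array left 26 to 33 called. The members not called were PRE9, RPN3, SEM1 and RPN4, with differences of -0.19 ± 0.11, -0.26 ± 0.11, -0.19 ± 0.14 and -0.32 ± 0.11.

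In batch the members had a smaller median difference of the same direction. There 18 of 36 were called lower in YSBN2 and 0 higher, against 10.5% and 18.5% of all probe sets, with a median of -0.31 beside 0.02. At an unadjusted p under 0.05, 24 were lower and 0 higher, again with no share of all probe sets computed. With a common array median 24 were called lower, against 14.8% of all probe sets. Without the third YSBN2 batch array 26 were called lower and 1, RPN2, higher (0.32 ± 0.10). The shares of all probe sets rose as well in that fit, to 19.5% lower and 24% higher. The count of lower members was 11 without CEN.PK 113-7D batch array 2, 10 without YSBN2 batch array 1 and 7 when only the 6 arrays compared were fitted. In both cultures 17 members were called lower, and the share of all probe sets called lower in both was not computed. The 2 strain differences share no array, and across the 36 members they had an r of 0.53.

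**Figure D4:**
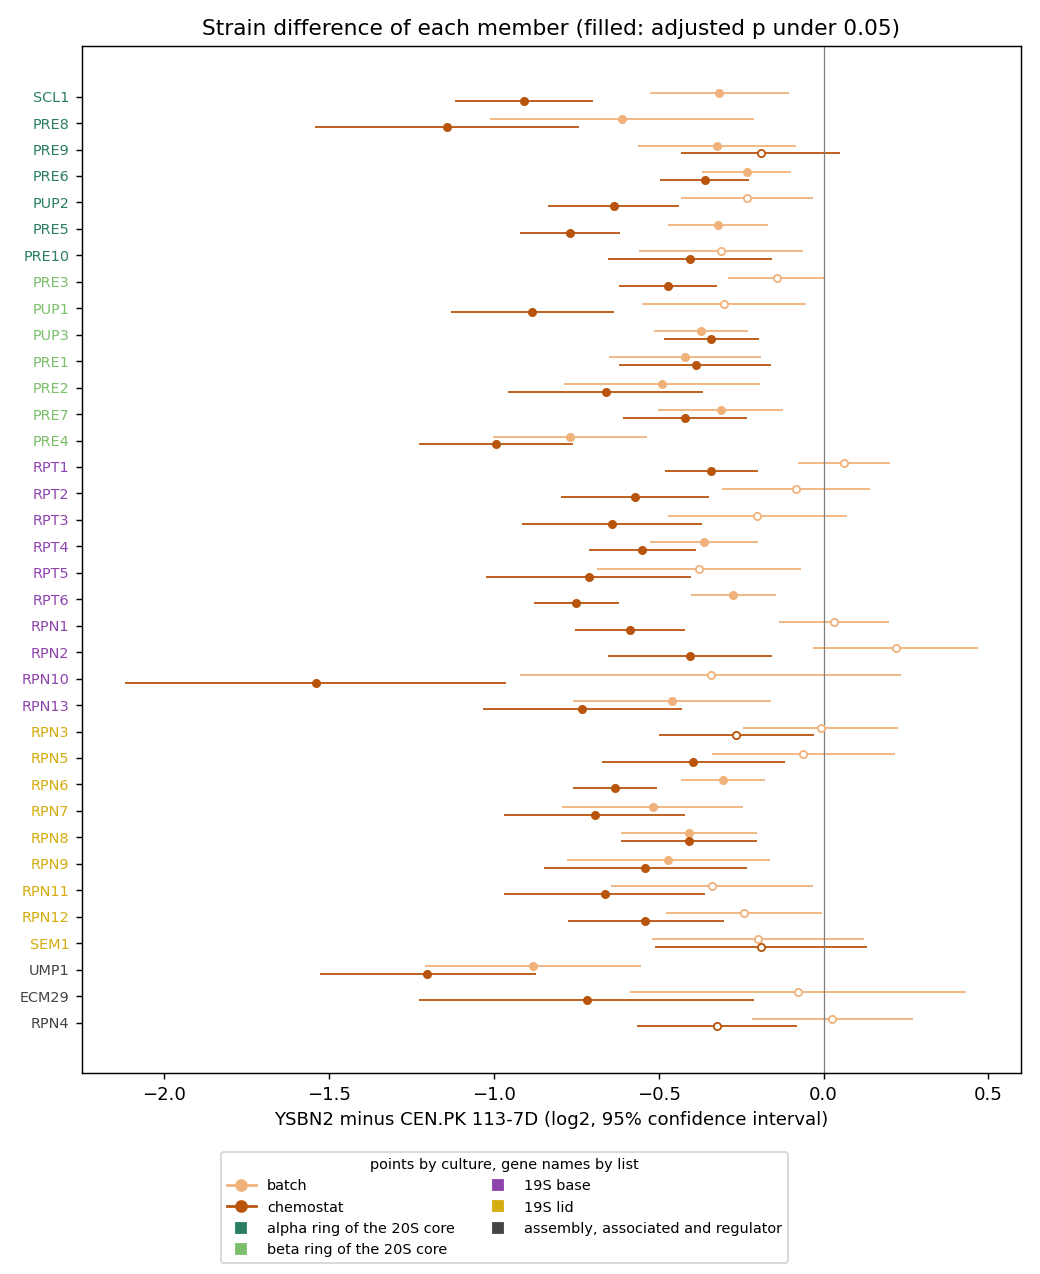
YSBN2 minus CEN.PK 113-7D (log2) for each of the 36 members in batch and in chemostat, with 95% confidence intervals and filled points where the limma adjusted p was under 0.05. All 36 chemostat points lie left of 0, the batch points of RPT1, RPN1, RPN3 and RPN4 lie near 0, and RPN10, UMP1 and PRE8 have the largest chemostat differences.

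UMP1 had the largest strain difference in batch and the second largest in the chemostat. It read 13.02, 12.91 and 13.02 in CEN.PK 113-7D batch against 11.90, 11.92 and 12.48 in YSBN2 batch, and 13.61, 13.48 and 13.76 against 12.45, 12.44 and 12.35 in the chemostats. Every YSBN2 array was below every CEN.PK 113-7D array. The differences were -0.88 ± 0.15 (limma adjusted p = 0.00173) in batch, -1.07 ± 0.09 there without the third YSBN2 array, and -1.20 ± 0.15 (0.000388), or 2.30-fold, in the chemostat.

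In the core 10 of 14 genes were called lower in YSBN2 in batch, 14 without the third YSBN2 array, and 13 of 14 in the chemostat. The shares of all probe sets were 10.5%, 19.5% and 15.3%. PRE4 of the beta ring read 13.86, 13.89 and 14.10 in CEN.PK 113-7D batch and 13.03, 13.11 and 13.40 in YSBN2 batch. In the chemostats it read 14.21, 14.18 and 14.19 against 13.24, 13.11 and 13.24. The strains did not overlap in either culture, and the differences were -0.77 ± 0.10 and -0.99 ± 0.10 (limma adjusted p = 0.000545 and 0.000162), with -0.88 ± 0.08 in batch without the third YSBN2 array. PRE8, SCL1 and PUP1 differed by -1.14 ± 0.18, -0.91 ± 0.09 and -0.88 ± 0.11 in the chemostat. PRE9, the one core subunit that yeast can live without, was called lower in batch (-0.32 ± 0.11) and not in the chemostat (-0.19 ± 0.11). The batch call was lost in 14 of 21 alternative settings, among them the replicate block and the fit of only the arrays compared. Without the third YSBN2 batch array it was kept (-0.435 ± 0.087).

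In the base 10 of 10 genes were called lower in the chemostat and 3 of 10 in batch (RPT4, RPT6 and RPN13), or 5 lower and RPN2 higher without the third YSBN2 batch array. Over all probe sets 15.3% were called lower in the chemostat and 10.5% in batch, or 19.5% without that array. RPT6 read 14.01, 14.02 and 13.99 in CEN.PK 113-7D batch, 14.23, 14.20 and 14.22 in its chemostat, 13.74, 13.66 and 13.80 in YSBN2 batch and 13.40, 13.49 and 13.51 in its chemostat. The 4 groups did not overlap, and the strain difference was -0.27 ± 0.06 in batch (-0.31 ± 0.05 without the third YSBN2 array) and -0.75 ± 0.06 in the chemostat. RPN10 gave the largest difference of all members in the chemostat, -1.54 ± 0.26 or 2.91-fold, and was not called in batch at -0.34 ± 0.26. In the lid 4 of 9 genes were called lower in batch, 6 without the third YSBN2 array, and 7 of 9 in the chemostat, beside the same shares of all probe sets. RPN7 gave -0.52 ± 0.12 in batch and -0.69 ± 0.12 in the chemostat.

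The difference between the strains' culture effects was tested directly. It was called for 10 members, all with a lower effect in YSBN2, against 11.1% of all probe sets called lower and 4.34% called higher. No member was higher, also at an unadjusted p under 0.05, where 14 were lower and no share of all probe sets was computed. The 10 were SCL1, PRE5, PRE3, PUP1, RPT1, RPT2, RPT6, RPN1, RPN2 and RPN6, so 5 of them belong to the base. Under equal array medians 1, RPN1, was called, beside 8.45% of all probe sets called lower. RPN1 gave -0.47 there against -0.62 ± 0.10 as deposited, and the members' median moved from -0.33 to -0.17. The count was 12 without the third YSBN2 batch array, beside 15.7% of all probe sets. It was 6 without CEN.PK 113-7D batch array 2, and 5 without CEN.PK 113-7D chemostat array 2 or 3, YSBN2 batch array 2 or YSBN2 chemostat array 1. For RPN4 the difference of effects was -0.35 ± 0.15, not called.

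Other genes of the pathway, 34 in 5 lists, were read the same way. In CEN.PK 113-7D 18 were called higher and 3 lower in the chemostat, beside 33.9% and 22.2% of all probe sets. In YSBN2 14 were higher and 4 lower, beside 30.6% and 21.9%. Without the third YSBN2 batch array the counts were 19 and 5 in CEN.PK 113-7D, beside 37.4% and 25.9%. In YSBN2 they were then 15 and 5, beside 31.9% and 22.6%. Medians with all arrays were 0.43 and 0.28. Under equal array medians the counts became 11 and 10 in CEN.PK 113-7D, beside 25.4% and 37.5% of all probe sets, and 12 and 5 in YSBN2, beside 25.8% and 27.4%. Ubiquitin genes share near-identical coding repeats, so their probe sets may read each other. Of the 5 ubiquitin and E1 genes 2 were called higher and 1 lower in CEN.PK 113-7D, beside 33.9% and 22.2% of all probe sets. RPL40B had the lowest difference there (-0.57), and the list median was -0.10. In YSBN2 2 were higher and 0 lower, beside 30.6% and 21.9%. Equal array medians gave 1 higher and 3 lower in CEN.PK 113-7D, beside 25.4% and 37.5%. The polyubiquitin gene UBI4 rose by 2.39 ± 0.08 in CEN.PK 113-7D and by 1.04 ± 0.08 in YSBN2. Its difference of effects was -1.35 ± 0.11 (limma adjusted p = 7.91e-05), and in batch it was already higher in YSBN2 by 1.21 ± 0.08. The ubiquitin-activating enzyme UBA1 rose by 0.47 ± 0.06 and 0.26 ± 0.06, and was not called with a common array median.

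Of 6 genes for ubiquitin shuttles, which carry marked proteins to the proteasome, and the Cdc48 complex, 3 were called higher and 2 lower in CEN.PK 113-7D, and 2 higher and 3 lower in YSBN2. The shares of all probe sets were 33.9% and 22.2% in CEN.PK 113-7D, and 30.6% and 21.9% in YSBN2. RAD23 fell in the chemostat in both strains (-0.55 ± 0.12 and -1.29 ± 0.12), by -0.83 in CEN.PK 113-7D under equal array medians, and its strain difference in the chemostat was -1.29 ± 0.12. DSK2 fell as well, with differences of -2.40 and -3.81 and a wide SE of 0.69. DDI1 rose by 1.78 ± 0.44 in each strain, and by 1.18 in CEN.PK 113-7D with quantile normalization. NPL4, a cofactor of the segregase CDC48, rose by 1.02 ± 0.08 and 0.77 ± 0.08. CDC48 itself gave 0.21 ± 0.06 and -0.28 ± 0.06, both called, the first of which turned to -0.077 and was not called with a common array median.

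Of the 7 proteasome-associated factors 5 were called higher in CEN.PK 113-7D and 4 in YSBN2, beside 33.9% and 30.6% of all probe sets. With all 12 arrays 0 were called lower in each strain. Without the third YSBN2 batch array CIC1 was called lower in CEN.PK 113-7D (-0.91 ± 0.15, limma adjusted p = 0.000791). A common array median also gave 1 lower factor there. SPG5, a regulator of the proteasome in resting cells, rose by 2.22 ± 0.08 and 1.90 ± 0.08. BLM10, an alternative cap of the core, rose by 1.10 ± 0.17 and 0.89 ± 0.17. FUB1, related to a mammalian proteasome inhibitor, rose by 1.79 ± 0.14 and 0.64 ± 0.14, with a difference of effects of -1.15 ± 0.19, and by 0.40 in YSBN2 with quantile normalization. Among 8 assembly chaperones 3 were called higher in each strain and 1, ADD66, lower in YSBN2. Over all probe sets 33.9% and 30.6% were called higher, and 21.9% lower in YSBN2. Of the chaperones acting on the base, NAS2 rose by 2.01 ± 0.13 and 1.55 ± 0.13 and RPN14 by 0.65 ± 0.10 and 0.58 ± 0.10, though quantile normalization gave RPN14 0.12 and 0.30, not called in either strain. The core chaperone PBA1 was not called with culture and was lower in YSBN2, with differences of -0.97 ± 0.16 in batch and -0.79 ± 0.16 in the chemostat.

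Of 8 genes for Rpn4 turnover and RPN4 transcription, 5 were called higher in CEN.PK 113-7D and 3 in YSBN2, beside 33.9% and 30.6% of all probe sets. With all 12 arrays 0 were called lower. UBR2 and MUB1, which together mark Rpn4 for destruction, rose by 1.92 ± 0.34 and 1.55 ± 0.10 in CEN.PK 113-7D and by 1.54 ± 0.34 and 0.56 ± 0.10 in YSBN2. With quantile normalization the CEN.PK 113-7D rise of UBR2 was 0.72, still called. YAP1, an oxidative stress regulator that can activate RPN4, rose by 1.14 ± 0.15 and 0.72 ± 0.15. PDR1 was called higher in CEN.PK 113-7D as deposited (0.71 ± 0.16) and not in YSBN2 (0.30 ± 0.16). The heat shock factor gene HSF1 (0.28 ± 0.32 and -0.53 ± 0.32) and PDR3 (0.24 ± 0.22 and 0.44 ± 0.22) were not called with all 12 arrays. Without the third YSBN2 batch array HSF1 was called lower in YSBN2 (-0.83 ± 0.29, limma adjusted p = 0.0396). In the same fit RAD6 was called lower in CEN.PK 113-7D (-0.44 ± 0.12, limma adjusted p = 0.00993).

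**Figure D5:**
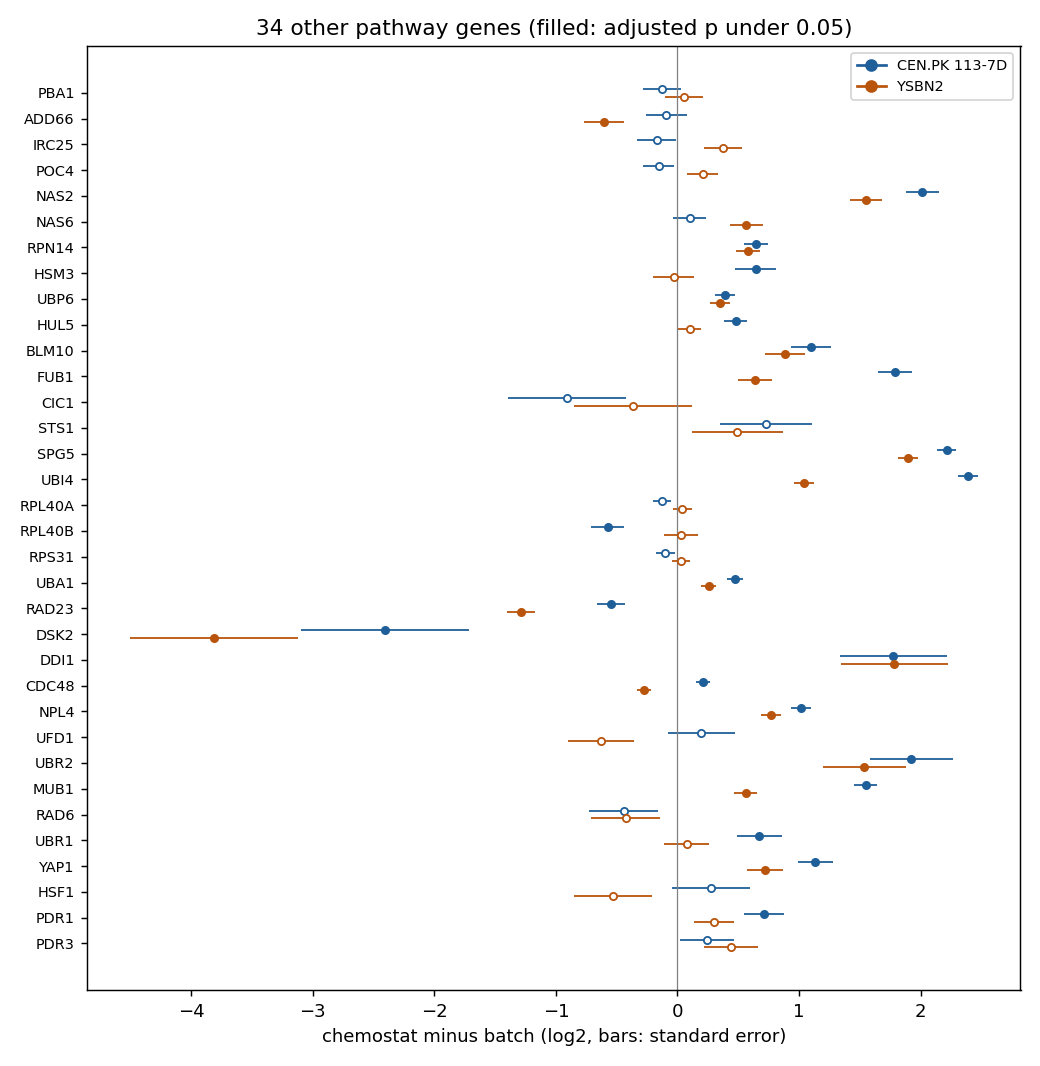
Chemostat minus batch difference (log2, bars are standard errors) of the 34 other pathway genes in each strain, with filled points where the limma adjusted p was under 0.05. UBI4, SPG5, NAS2 and UBR2 lie farthest to the right in CEN.PK 113-7D, and DSK2 and RAD23 lie left of 0 in both strains.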

How the data were processed

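Total RNA of 12 cultures was labelled with biotin and hybridized to Affymetrix arrays, per the labels' protocols. The authors made the deposited log2 signals with R 2.6, affy and RMA, per the submitters' processing notes, which give no order or settings. The log2 scale was read from the range of the values. Log base, background correction and normalization: not given in the sources used here.

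limma 3.58.1 (R 4.3.3) was fitted with 1 mean per group over 12 arrays, 5 contrasts (chemostat minus batch in CEN.PK 113-7D and in YSBN2, YSBN2 minus CEN.PK 113-7D in batch and in chemostat, and the difference of the culture effects) and 8 residual degrees of freedom. Benjamini-Hochberg adjustment of the two-sided moderated p ran over 5716 probe sets, and calls are at an adjusted p under 0.05. Errors of differences are standard errors and those of levels SDs. The script was tested on simulated data.

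The members and lists were chosen with earlier results of these data known. All members could be named; of other lists, called genes up to 3 per direction, list and comparison by size, plus YAP1, HSF1, PDR1 and PDR3, and the 5 genes most like the subunit mean and RPN4. Alternatives were 3 scalings, a floor of 6, leaving out the 25% dimmest probe sets, trend and robust settings, a replicate block, a threshold of 0.01, only the arrays compared, and leaving out each array. A common array median without the third YSBN2 batch array was chosen after seeing the data. Deviations of same-numbered CEN.PK 113-7D batch and chemostat arrays had correlations of 0.50, 0.28 and 0.31. Those of the CEN.PK 113-7D and YSBN2 chemostats were 0.60, -0.10 and 0.20. CEN.PK 113-7D batch with YSBN2 chemostat gave 0.36, 0.01 and 0.37, and other pairs compared were not all over 0.1. The main fit used no pairing for any comparison, and the replicate block was run only as an alternative. No column was left unused. Promoter and protein sequences were not used here.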

Additional observations from a re-analysis of the deposited data

Results flagged for a closer look

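For 10 members the chemostat effect in YSBN2 was lower than in CEN.PK 113-7D by a test of that difference (limma, adjusted p under 0.05). Over all probe sets 11.1% were called lower in this way. The log2 differences of effects were -0.59 for SCL1, -0.45 for PRE5, -0.33 for PRE3 and -0.58 for PUP1 in the core. In the base they were -0.40 for RPT1, -0.49 for RPT2, -0.48 for RPT6, -0.62 for RPN1 and -0.62 for RPN2, and in the lid -0.33 for RPN6. With a common array median, which shifts this comparison by 0.15 over all probe sets, RPN1 alone stayed called.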

How the results depend on the processing

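Counts of called members are given. In the chemostat strain comparison they stayed within 1.5 times of the reported count in every alternative run. With a common array median, 3 were higher and 4 lower in CEN.PK 113-7D culture, with RPT6 at -0.075 and RPN1 at -0.082 turned in sign. There 3 were higher in YSBN2 culture and 1 was lower in the difference of effects. Quantile normalization gave 2 lower in CEN.PK 113-7D culture and 5 lower in the difference of effects, where cyclic loess gave 6. In CEN.PK 113-7D culture, trend and robust settings gave 1 lower and the replicate block 2 lower. A threshold of 0.01 gave 3 higher in YSBN2 culture, 8 lower between strains in batch and 2 lower in the difference of effects. Fitting only the 6 arrays compared gave 20 higher in CEN.PK 113-7D culture, 5 higher in YSBN2 culture and 7 lower between strains in batch. Leaving out 1 array gave 10 to 21 higher and 0 to 2 lower in CEN.PK 113-7D culture, and 4 to 11 higher in YSBN2 culture. It gave 0 to 1 higher and 10 to 26 lower between strains in batch, and 5 to 12 lower in the difference of effects. A common array median without YSBN2 batch array 3, chosen after seeing the data, gave 1 higher between strains in batch and 3 lower in the difference of effects. The causes of these changes were not tested. With 3 arrays a group, small differences cannot be resolved.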
